A study of Rattus norvegicus with 10 samples.

Results

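The genes described here are the organic ion carriers and ATP-binding cassette (ABC) transporters of the rat kidney cortex. They were chosen by name alone: every row of the deposited gene table whose symbol begins with Slc22a, Slco, Slc47a, Abca, Abcb, Abcc, Abcd or Abcg was taken, apart from 2 genes not analysed here, which gave 78 of the 32545 rows. By known role, 28 of them were uptake carriers (Slc22a carriers of anions, cations and carnitine, and the Slco carriers), 12 were efflux pumps (Slc47a and the drug, conjugate and bile salt pumps of Abcb and Abcc), and 38 were neither, such as the lipid transporters and the sulfonylurea receptors.

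Messenger RNA of left kidney cortex was sequenced in 10 libraries from male rats aged 11 to 12 weeks, all on the Dahl salt-sensitive background, which retains more sodium and raises its blood pressure on a salty diet. The 5 libraries labelled SS_WT are wild type, and the 5 labelled Kcnj16_m1 carry an allele of Kcnj16, which encodes an inwardly rectifying potassium channel subunit of the basolateral membrane, and the series is titled as a study of the knockout. Diet, the nature of the m1 allele and whether each library came from its own animal are not stated. The p-values below therefore measure the spread between these libraries, which may be technical. Replicate numbers only name libraries.

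Proximal tubule cells clear drugs, toxins and metabolites from blood in steps. Basolateral carriers of the Slc22a family take organic anions in by exchange with dicarboxylates, or organic cations in by the membrane potential, and apical pumps of the Slc47a and ABC families move them on into the urine. Many of these genes are known to be expressed along particular segments of the tubule and, in rodents, to differ between the sexes.

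Levels are FPKM, fragments scaled by gene length and library depth, as deposited. Whole reads recovered from them summed to between 16361516 and 23385968 per library. Kcnj16 itself stood at 323 to 372 FPKM in SS_WT and 307 to 339 in Kcnj16_m1, with a log2 difference of -0.09 (95% interval -0.21 to 0.04, adjusted p = 0.278 by limma), so its transcript level does not check the genotype labels. The tissue label was checked on its markers: summed markers of proximal segments 1 and 2 lay at 3631 to 5552 FPKM in SS_WT and 5087 to 5735 in Kcnj16_m1, while the 4 inner medulla markers were mixed and do not settle which part of the kidney was taken. Of these, the urea transporter gene Slc14a2 was below 0.1 FPKM in every library, Slc4a11 lay at 0.438 to 1.24 FPKM and Cldn4 at 8.08 to 45.04 FPKM, and the water channel gene Aqp1, which the proximal tubule also expresses, lay at 430 to 550.4 FPKM. Some other marker lists moved with genotype, beside 14.6% higher and 14.0% lower over all genes in the test given below. Proximal injury markers were lower for 9 of 11 tested (summed 653 to 3313 against 291 to 367 FPKM) and macrophage and lymphocyte markers lower for 6 of 8 (739 to 986 against 611 to 754). Collecting duct markers were higher for 7 of 9 and 1 lower (173 to 250 against 252 to 287). Podocyte markers were higher for 5 of 6 (100.6 to 114 against 122 to 145) and endothelial markers higher for 5 of 7 (120.1 to 144 against 167 to 176). Other lists did not move so: 0 of 6 thick ascending limb markers were called. Of 5 distal convoluted and connecting tubule markers 2 were higher and 2 lower, and of 8 proximal segment 3 markers 3 were higher and 1 lower. One library of each genotype stood apart: of the 52 members tested below, 7 lay more than 1 log2 unit under the mean of the other libraries of their group in SS_WT replicate 3 and 2 in Kcnj16_m1 replicate 5, against 0 in each of the others, and results that rest on these libraries are given with and without them. In bulk tissue, fewer cells of a type and less RNA per cell cannot be told apart.

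Promoter sequences are shown for 5 members: the pump and the carrier with the smallest adjusted p, the pump that fell, and 2 neighbouring anion carriers whose promoters hold the same motif. They are from RefSeq, assembly GRCr8, and run from 250 bases before to 50 bases after the gene start, 5′ to 3′ on the gene's strand. Capitals mark matches on either strand to GTTAAT (HNF1 half-site), CAAAGTCCA (HNF4 site), TGACNNNGC (antioxidant element), GCGTG (dioxin element core) or AGGTCA (nuclear receptor half-site), so ATTAAC and CACGC are the same letters read from the other strand. Abcc4 is at chr15:102181315-102181614 on the minus strand, Slco2a1 at chr8:112467489-112467788 on the plus strand, Abcb1a at chr4:26397599-26397898 on the minus strand, Slc22a8 at chr1:214927034-214927333 on the plus strand and Slc22a25 at chr1:214862291-214862590 on the minus strand.
Abcc4: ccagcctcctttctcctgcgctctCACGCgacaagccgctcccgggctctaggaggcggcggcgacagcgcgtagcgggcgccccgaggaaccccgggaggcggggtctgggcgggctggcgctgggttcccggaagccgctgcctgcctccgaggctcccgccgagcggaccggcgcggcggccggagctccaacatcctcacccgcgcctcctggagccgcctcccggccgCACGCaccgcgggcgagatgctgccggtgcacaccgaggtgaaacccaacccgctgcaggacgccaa
Slco2a1: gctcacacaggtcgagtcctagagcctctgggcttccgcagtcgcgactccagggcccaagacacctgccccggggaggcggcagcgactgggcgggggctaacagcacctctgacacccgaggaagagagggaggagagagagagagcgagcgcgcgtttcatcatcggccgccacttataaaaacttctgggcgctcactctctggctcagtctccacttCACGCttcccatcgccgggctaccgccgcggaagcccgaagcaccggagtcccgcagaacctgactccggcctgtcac
Abcb1a: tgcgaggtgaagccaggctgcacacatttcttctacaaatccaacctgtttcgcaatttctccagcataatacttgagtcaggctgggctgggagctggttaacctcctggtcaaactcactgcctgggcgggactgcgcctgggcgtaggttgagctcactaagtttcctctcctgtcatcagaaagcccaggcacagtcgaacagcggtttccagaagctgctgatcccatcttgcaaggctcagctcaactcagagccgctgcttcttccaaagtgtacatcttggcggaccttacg
Slc22a8: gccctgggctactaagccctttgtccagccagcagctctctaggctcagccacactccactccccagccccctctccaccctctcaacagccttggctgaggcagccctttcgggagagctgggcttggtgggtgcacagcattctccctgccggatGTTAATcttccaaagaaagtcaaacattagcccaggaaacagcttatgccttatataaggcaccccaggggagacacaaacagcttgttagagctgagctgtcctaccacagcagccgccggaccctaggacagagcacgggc
Slc22a25: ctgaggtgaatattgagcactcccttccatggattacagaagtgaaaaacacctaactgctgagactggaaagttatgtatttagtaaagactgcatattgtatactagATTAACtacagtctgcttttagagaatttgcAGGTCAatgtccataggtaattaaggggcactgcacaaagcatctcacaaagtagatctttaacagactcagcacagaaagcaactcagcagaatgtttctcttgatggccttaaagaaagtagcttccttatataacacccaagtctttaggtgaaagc

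Of the 78 members, 62 had a promoter in the RefSeq table. GTTAAT was held by 9.68% of these 62 and by 7.45% of all 33469 promoters of the same length. Among the members tested below it was found in Slc22a8, Slc22a25 and Abcc2. GCGTG was held by 38.7% of the members' promoters and 29.7% of all. Of the 41 tested members with a promoter 18 held it, of which 5 were called higher below and 13 were not called. CAAAGTCCA was held by 2 of the 62 (3.23%) and by 0.391% of all. These 2 were Abcd3 and Abca6, of which Abca6 was not tested. TGACNNNGC was held by 10 of the 62 (16.1%) and by 12.1% of all. Those 10 count the same window for both Slco6d1 rows, and the windows of Abcg5 and Abcg8, which overlap on opposite strands. AGGTCA was held by 16.1% of members and 16.2% of all. None of the 5 motifs was found in the Abcb1a window. A match describes letters in a window and not a site in use.

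The genotypes were compared with limma on log2(FPKM + 0.5), and a gene was called at a Benjamini-Hochberg adjusted p below 0.05 over all 13971 genes that reached 0.5 FPKM in 5 or more libraries. Differences are Kcnj16_m1 minus SS_WT on that log2 scale, on which the added 0.5 FPKM makes the differences of faint members smaller. Of the 78 members 52 were tested. The other 26 were under the filter, and their highest value in any library was 0.545 FPKM, for Abca15. Of the 52 tested, 10 were higher, 2 were lower and 40 were not called, or 23.1% called. Over all tested genes 28.5% were called, 14.6% higher and 14.0% lower. The members' share called was not above that background, their share higher was 19.2% and their share lower 3.85%. Their median difference was 0.03, beside 0.01 over all tested genes. The groups did not overlap for 13 members (25%), against 19.2% of all tested genes.

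The 2 sides of transport each held rises, and neither moved as a block. Of 17 tested uptake carriers 4 were higher and 0 lower, with a median difference of -0.03. The count of uptake carriers lower was also 0 at an unadjusted p under 0.05 in limma, and 0 with limma voom on whole reads. Of 9 tested efflux pumps 2 were higher and 1 lower, with a median of 0.07. Of 26 members on neither side 4 were higher and 1 lower, with a median of 0.03. A difference between the sides was not tested.

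**Figure D1:**
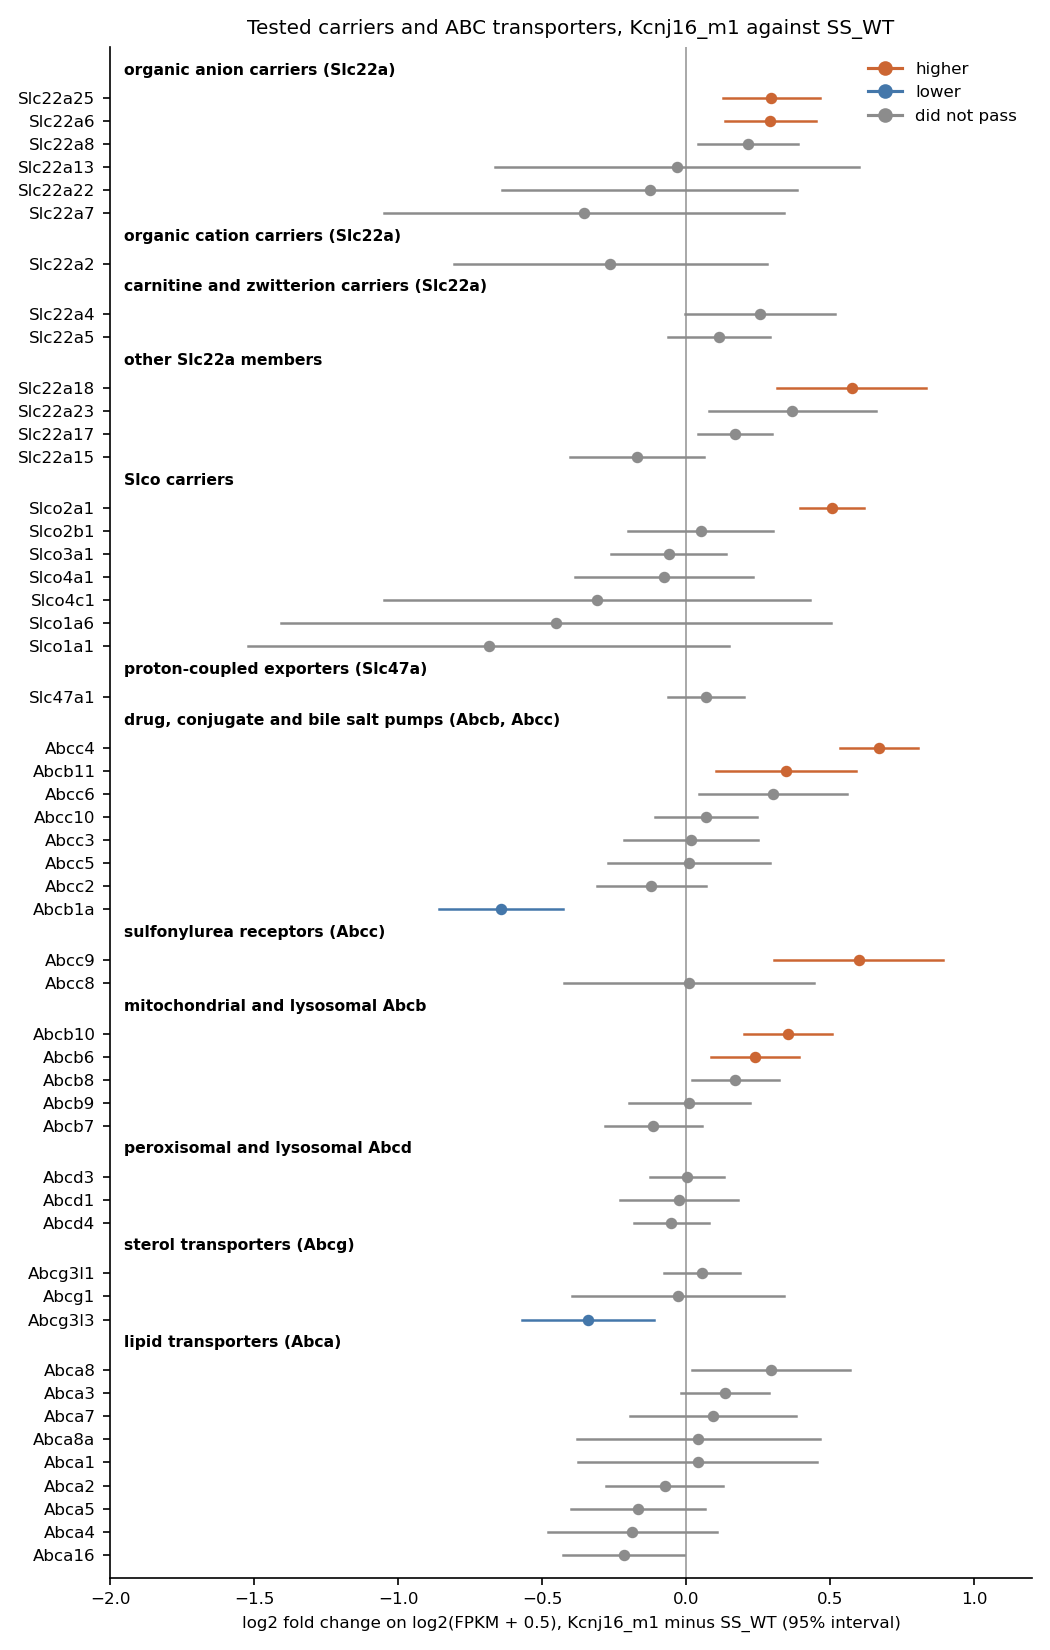
Log2 difference (Kcnj16_m1 minus SS_WT, log2(FPKM + 0.5)) of the tested members reported here, grouped by role, with 95% intervals from limma, in colour for members called higher or lower and in grey for the others. Members called higher are spread over several roles, and the 2 called lower are Abcb1a and Abcg3l3.

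Organic anion uptake carried the highest levels. Slc22a6 (OAT1, the basolateral exchanger that takes up p-aminohippurate and many drugs; ENSRNOG00000018215, chromosome 1, 224824799 to 224833259, plus strand in the deposited table) ranked first of all members. It stood at 497, 532, 447, 518 and 456 FPKM in SS_WT and at 558, 589, 594, 580.4 and 677 FPKM in Kcnj16_m1. All 5 Kcnj16_m1 libraries lay above all 5 SS_WT libraries. The mean rose from 490.0 ± 37.6 to 599.6 ± 45.3 FPKM (SD, n = 5 each), a log2 difference of 0.29 (SE 0.07, adjusted p = 0.0125 by limma, exact permutation p = 0.00794, the smallest that 252 splits allow).

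Slc22a8 (OAT3, the basolateral carrier of larger anions and steroid conjugates; chromosome 1, 224800252 to 224818482, plus strand) stood at 425, 501, 425, 458 and 408 FPKM in SS_WT and at 502, 460.2, 500.1, 518 and 594 FPKM in Kcnj16_m1. SS_WT replicate 2 lay among the Kcnj16_m1 libraries, so the groups overlapped. The means were 443 ± 36.9 and 515 ± 49.1 FPKM, a log2 difference of 0.21 (95% interval 0.04 to 0.39) that was not called (adjusted p = 0.0643 by limma).

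Slc22a25, a carrier of the same branch whose gene lies beside those 2 (chromosome 1, 224596887 to 224698514, minus strand), stood at 60.5, 58.5, 45.3, 58.9 and 58.1 FPKM in SS_WT and at 69.1, 70.2, 71.4, 69.3 and 63.8 FPKM in Kcnj16_m1. Every Kcnj16_m1 library exceeded every SS_WT library, and SS_WT replicate 3 lay lowest. The rise was 0.29 on the log2 scale (SE 0.08, adjusted p = 0.0159 by limma). The 3 genes span 236 kb with no other protein-coding gene between them. The promoters of Slc22a25 and Slc22a8 printed above were picked because each holds the GTTAAT letters, and Slc22a6 had no promoter in the RefSeq table. GTTAAT was held by 3 of the 41 tested members with a promoter (7.32%), beside 7.45% of all promoters. It was held by 1 of the 7 members with a promoter that were called higher. Proximal segment 1 and 2 markers, a part of the tubule that holds these anion carriers, were higher for 5 of 11 tested and lower for 0, with a median of 0.22. Their part in these rises was not tested.

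Of the organic cation carriers, Slc22a2 (OCT2, the main basolateral cation carrier of the rodent kidney; chromosome 1, 48317995 to 48360261, minus strand, overlapped on the other strand by AC114389.1 and therefore uncertain) stood at 211, 164, 70.6, 176 and 178 FPKM in SS_WT and at 132, 149, 118, 118 and 112 FPKM in Kcnj16_m1. SS_WT replicate 3 lay below every Kcnj16_m1 library and the other 4 SS_WT libraries above them. With all libraries the log2 difference was -0.26 (SE 0.25, adjusted p = 0.452 by limma, not called). Without SS_WT replicate 3, the library that lay low, it was -0.53 and called. Its adjusted p in limma ran from 0.00404 to 0.895 over all alternatives.

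The carnitine carrier Slc22a5 (OCTN2) stood at 64.8 ± 4.98 FPKM in SS_WT and 70.3 ± 8.14 in Kcnj16_m1, and Slc22a4 (OCTN1, known for ergothioneine) at 7.73 ± 1.54 and 9.20 ± 0.745, and neither was called. Slc22a18, an orphan carrier, stood at 118, 87.7, 76.7, 71.3 and 80.7 FPKM in SS_WT and at 120.2, 126, 126, 124 and 143 FPKM in Kcnj16_m1. All Kcnj16_m1 libraries lay above SS_WT, with SS_WT replicate 1 just below them. It rose by 0.57 on the log2 scale (SE 0.12, adjusted p = 0.00527 by limma, ratio of means 1.47). Slc22a23 stood at 35.4 ± 6.48 and 45.5 ± 6.11 FPKM (log2 difference 0.37, adjusted p = 0.0575 by limma) and Slc22a17 at 11.7 ± 0.886 and 13.2 ± 0.492 (0.17, adjusted p = 0.0507 by limma), and neither was called, although the groups of Slc22a17 did not overlap.

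Of the Slco carriers, which take up bile salts, steroid conjugates and prostaglandins, 7 of 16 were tested and 1 was called. Slco2a1 (the prostaglandin transporter; chromosome 8, 111495331 to 111577833, plus strand, overlapped by the small RNA gene SNORA17 on the other strand) stood at 7.001, 7.38, 7.35, 7.89 and 7.56 FPKM in SS_WT and at 10.8, 10.9, 11.3, 10.7 and 10.1 FPKM in Kcnj16_m1. The 2 groups were well apart, with a small spread in each. It rose from 7.43 ± 0.322 to 10.8 ± 0.438 FPKM, a log2 difference of 0.51 (SE 0.05, adjusted p = 0.000163 by limma, exact permutation p = 0.00794). Slco2a1 is known to be expressed in endothelium, and the endothelial markers were higher for 5 of 7 tested, with a median of 0.36. Their part in the rise was not tested.

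On the efflux side, Slc47a1 (MATE1, the apical proton exchanger that passes organic cations to the urine; chromosome 10, 47632192 to 47666921, minus strand) was the most abundant efflux member. It stood at 153, 148, 136, 157 and 142 FPKM in SS_WT and at 147, 156, 144, 153 and 172 FPKM in Kcnj16_m1. The groups overlapped almost entirely, and the log2 difference was 0.07 (95% interval -0.06 to 0.20, adjusted p = 0.425 by limma).

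Abcc4 (MRP4, a pump of organic anions and cyclic nucleotides on the apical membrane; chromosome 15, 103696557 to 103927592, minus strand, overlapped by a U6 small RNA gene on the other strand) had the largest rise of any member called. It stood at 17.4, 17.9, 17.97, 16.2 and 15.1 FPKM in SS_WT and at 27.1, 26.4, 25.01, 28.7 and 28.7 FPKM in Kcnj16_m1. No library of one group came near the other group. The mean rose from 16.9 ± 1.22 to 27.2 ± 1.57 FPKM, a log2 difference of 0.67 (SE 0.06, adjusted p = 0.000106 by limma, exact permutation p = 0.00794, ratio of means 1.61).

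Abcb1a (P-glycoprotein, the apical pump of many lipophilic drugs; chromosome 4, 22133521 to 22425515, minus strand) was the pump that was called lower. It stood at 2.26, 2.47, 2.01, 1.78 and 1.89 FPKM in SS_WT and at 1.17, 1.27, 1.05, 0.995 and 1.26 FPKM in Kcnj16_m1. All Kcnj16_m1 libraries lay below all SS_WT libraries. Its mean fell from 2.08 ± 0.279 to 1.15 ± 0.122 FPKM, a log2 difference of -0.64 (SE 0.10, adjusted p = 0.0013 by limma, exact permutation p = 0.00794). The ratio of means was 0.552, and limma voom on whole reads gave a log2 difference of -0.86. Rats have a close copy, Abcb1b, which is not among the members, and how reads of the copies were assigned is not stated. The gene length given for Abcb1a, 14132 bases, is the longest of any member (next Abca13 at 13041). Whether the Abcb1a row also counts reads of a copy was not tested. Its level is therefore uncertain, and the fall may not be that of Abcb1a alone.

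Abcb11 (the bile salt export pump) was faint, at 0.573, 0.706, 0.567, 0.682 and 0.564 FPKM in SS_WT and at 1.13, 0.807, 0.976, 0.992 and 0.728 FPKM in Kcnj16_m1. The groups did not overlap, at 48 to 131 reads per library. It rose by 0.35 on the log2 scale (SE 0.11, adjusted p = 0.0376 by limma). Without SS_WT replicate 1, 3 or 5, or Kcnj16_m1 replicate 1, 3 or 4, and without SS_WT replicates 1 and 2 together, it was no longer called, with adjusted p up to 0.0946 in limma. The other pumps were not called: Abcc2 (MRP2, apical) stood at 7.74 ± 1.05 and 7.04 ± 0.382 FPKM, Abcc6 at 3.98 ± 0.840 and 4.95 ± 0.279, Abcc3 at 1.80 and 1.81, Abcc5 at 2.09 and 2.10, and Abcc10 at 1.96 and 2.07. Abcc2, Abcc5 and Abcc10 each overlap another gene on the opposite strand.

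**Figure D2:**
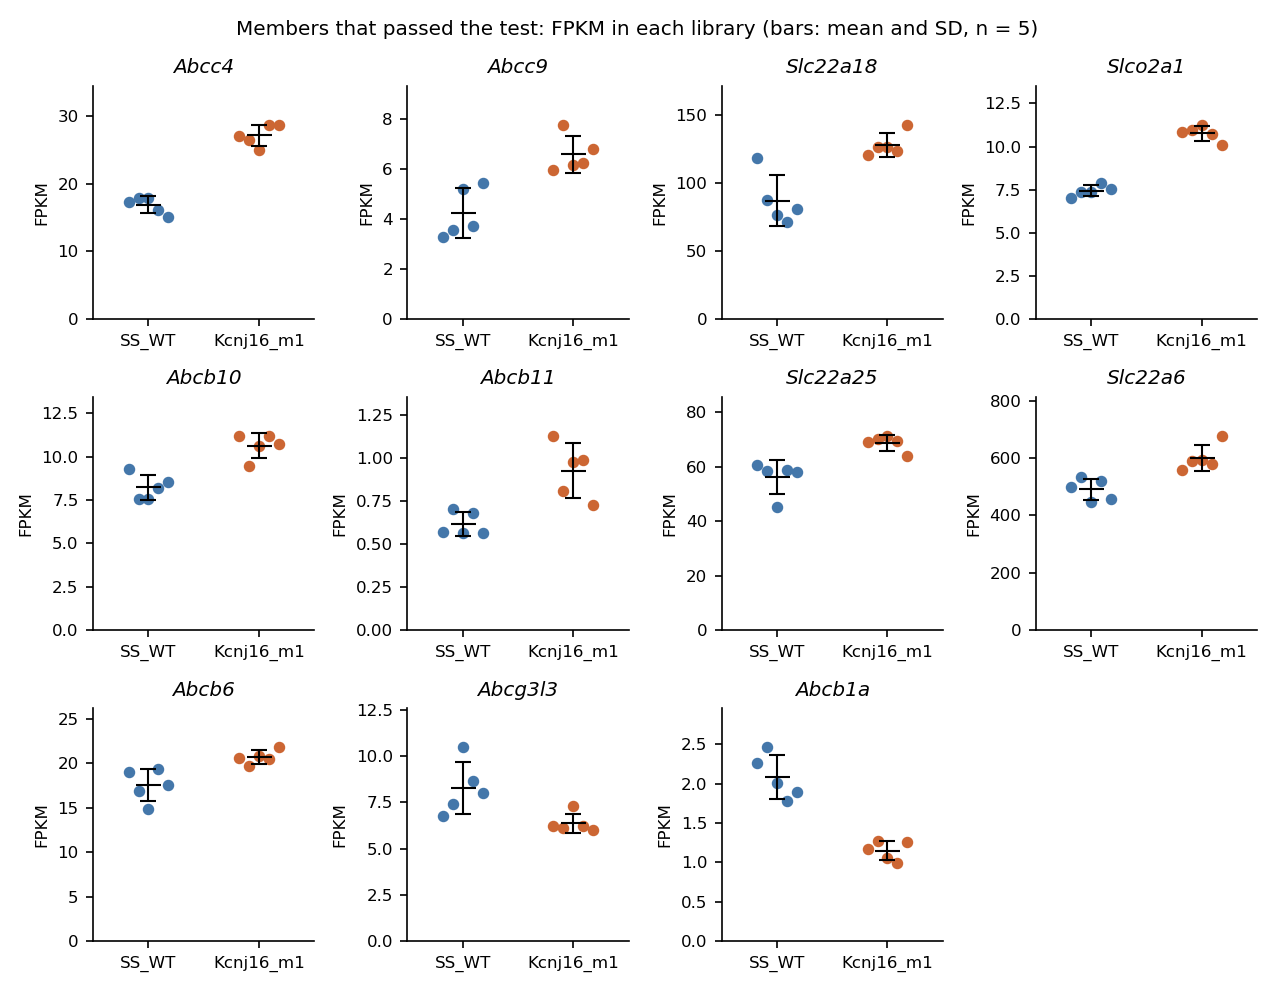
FPKM in each library for the called members reported here, with SS_WT and Kcnj16_m1 side by side, points for libraries and bars for group mean and SD. Abcc4 and Slco2a1 show the widest gaps between groups relative to their spread.

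Among members on neither side, Abcc9 (SUR2, the regulatory subunit of ATP-sensitive potassium channels in vessels and muscle) stood at 3.30, 3.58, 5.20, 3.70 and 5.43 FPKM in SS_WT and at 5.95, 7.76, 6.17, 6.23 and 6.80 FPKM in Kcnj16_m1. The Kcnj16_m1 libraries all lay above SS_WT. It rose by 0.60 on the log2 scale (SE 0.13, adjusted p = 0.00795 by limma). Fibroblast and smooth muscle markers were higher for 1 of 7 tested and lower for 3. Endothelial markers were higher for 5 of 7, and their part in the rise was not tested.

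The mitochondrial transporter Abcb10, which acts in haem synthesis, stood at 9.26, 7.58, 7.55, 8.21 and 8.52 FPKM in SS_WT and at 11.2, 9.45, 10.6, 11.2 and 10.7 FPKM in Kcnj16_m1, with no overlap. It rose by 0.35 on the log2 scale (SE 0.07, adjusted p = 0.0043 by limma). Abcb6, a porphyrin-related transporter, stood at 19.0, 16.8, 14.9, 19.3 and 17.6 FPKM in SS_WT and at 20.6, 19.7, 20.8, 20.52 and 21.8 FPKM in Kcnj16_m1. Its lowest Kcnj16_m1 library lay just above the highest SS_WT library. It rose by 0.24 (SE 0.07, adjusted p = 0.0265 by limma), and was not called without SS_WT replicate 2, or without Kcnj16_m1 replicate 1, 3, 4 or 5. Red blood cell markers were higher for 1 of 3 tested and lower for 0, with a median of 0.97. They summed to 60.2 to 132 FPKM in SS_WT and 107 to 322.5 in Kcnj16_m1. Their part in the rises of Abcb10 and Abcb6 was not tested.

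Abcg3l3, a member with close copies in the genome that could share reads, stood at 6.78, 7.43, 10.5, 8.64 and 8.002 FPKM in SS_WT and at 6.24, 6.11, 7.28, 6.21 and 6.02 FPKM in Kcnj16_m1. Kcnj16_m1 replicate 3 lay among the SS_WT libraries. It fell by 0.34 on the log2 scale (SE 0.10, adjusted p = 0.0309 by limma), and was not called without SS_WT replicate 4 or 5, or without Kcnj16_m1 replicate 1, 2, 4 or 5. Of the other members on neither side, Abcd3 (peroxisomal import of fatty acyl-CoA) stood at 64.9 ± 4.45 and 65.0 ± 3.84 FPKM, Abca1 (cholesterol efflux) at 3.15 and 3.19, and Abcg1 (sterol efflux) at 4.48 and 4.29. Abca1 overlaps another gene on the opposite strand. Of 9 Abca and 3 Abcd members tested, 0 were called by limma, and 2 Abca and 0 Abcd members had an unadjusted p under 0.05. These 2, whose groups did not overlap, were Abca16 (log2 difference -0.22, adjusted p = 0.112 by limma) and Abca8 (0.29, adjusted p = 0.1 by limma). With limma voom on whole reads Abca8 was called (0.54, adjusted p = 0.0425), and its adjusted p in limma ran from 0.0361 to 0.368 over all alternatives.

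A further pattern followed single libraries of both genotypes. The 8 members described next were picked after their values were seen, because SS_WT replicate 3 lay below 0.5 of the median of the other SS_WT libraries, so no test is given. They were 7 uptake carriers (Slc22a2, Slc22a7, Slc22a13, Slc22a22, Slco1a1, Slco1a6 and Slco4c1), 0 efflux pumps and Abcc8, the pancreatic sulfonylurea receptor. This was 15.4% of tested members, beside 3.01% of all tested genes (421). Kcnj16_m1 replicate 5 was the lowest of its group for all 8, though for Slc22a2 it lay close to the others (112 against 118 to 149 FPKM). The same count was not made over the 421 genes, so it is not known whether this is particular to these members. Slc22a13 (6 to 50 reads per library) and Abcc8 (11 to 63 reads) were faint.

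Slco1a6, an organic anion carrier of the rodent Slco1a branch, had its lowest levels in these 2 libraries. It stood at 123, 113, 26.1, 134 and 136 FPKM in SS_WT and at 86.2, 92.0, 64.8, 72.7 and 37.1 FPKM in Kcnj16_m1. SS_WT replicate 3 was the lowest library of all, and the other 4 SS_WT libraries lay above every Kcnj16_m1 library. Slco1a1 (a carrier of steroid and bile salt conjugates) stood at 76.1, 55.8, 18.5, 70.0 and 63.0 FPKM in SS_WT and at 45.0, 42.9, 31.5, 30.5 and 16.9 FPKM in Kcnj16_m1, with the same 2 libraries lowest. Slco4c1 (a carrier of digoxin and uraemic toxins) stood at 6.18, 6.04, 1.78, 6.97 and 6.79 FPKM in SS_WT and at 5.21, 5.83, 3.96, 3.78 and 2.18 FPKM in Kcnj16_m1. Again the same 2 libraries were lowest. Slco4c1 overlaps another gene on the opposite strand, so its level is uncertain.

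Slc22a7 (OAT2) stood at 1.64, 2.03, 0.267, 1.57 and 2.18 FPKM in SS_WT and at 1.34, 1.26, 0.737, 1.05 and 0.585 FPKM in Kcnj16_m1, on 15 to 116 reads per library. Slc22a22 (a prostaglandin carrier in the mouse) stood at 56.5, 44.2, 22.3, 46.4 and 43.1 FPKM in SS_WT and at 47.1, 41.0, 36.5, 40.1 and 25.2 FPKM in Kcnj16_m1. In both, SS_WT replicate 3 was lowest and Kcnj16_m1 replicate 5 next. Marker lists were mixed in these 2 libraries. The 8 proximal segment 3 markers summed to 1283 FPKM in SS_WT replicate 3 against 1905 to 2013 in the other SS_WT libraries, and to 1688 in Kcnj16_m1 replicate 5 against 1759 to 2168. Within that list Slc7a13 (70.6 FPKM against 341 to 469) and Slc3a1 (569 against 952 to 989) were low in SS_WT replicate 3, while Slc5a8 (36.4 against 22.6 to 28.1) and Slc13a1 (151 against 95.6 to 119.7) were high there. Thick ascending limb markers summed to 472 FPKM in SS_WT replicate 3 against 910.0 to 1077, but to 916 in Kcnj16_m1 replicate 5 against 805 to 924. Proximal injury markers summed to 3313 FPKM in SS_WT replicate 3 against 653 to 2145, and to 367 in Kcnj16_m1 replicate 5 against 291 to 323. The part of these in the pattern was not tested.

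**Figure D3:**
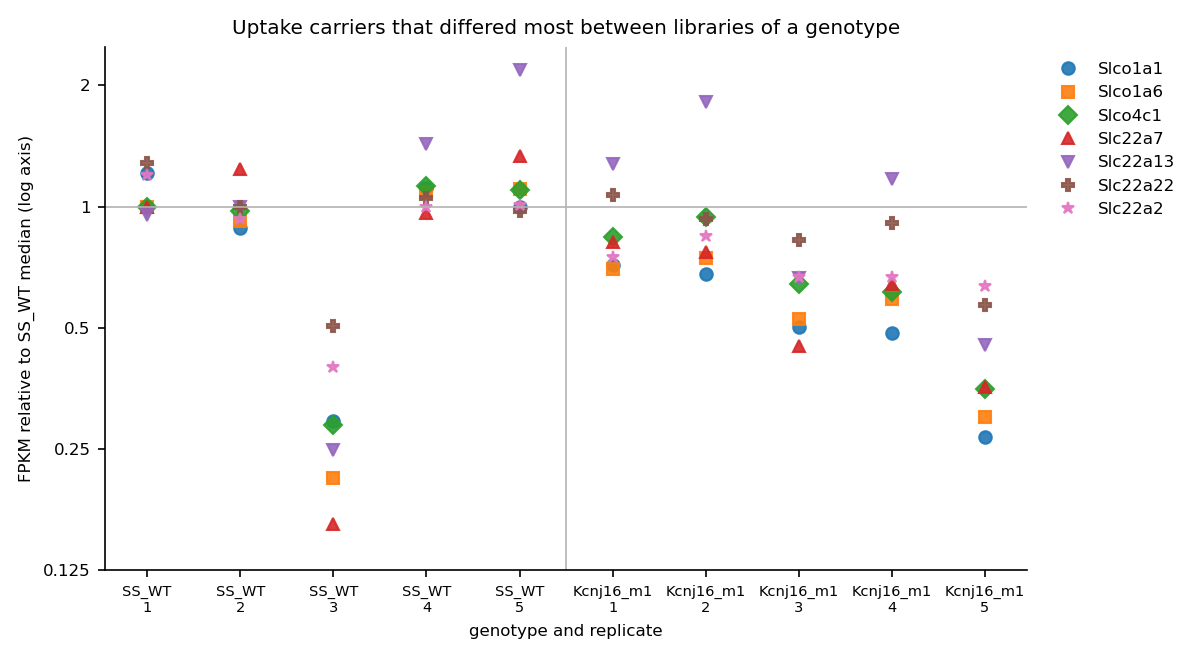
FPKM of the 7 library-varying uptake carriers in each library, divided by the SS_WT median of that gene, on a log axis. SS_WT replicate 3 and Kcnj16_m1 replicate 5 lie lowest in their groups for all 7.

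Leaving out SS_WT replicate 3 changed the calls for uptake carriers. With it left out, 8 members were lower and 9 higher, beside 13.0% and 12.5% of all tested genes, and 4 uptake carriers were lower in place of 0. These 4 were Slco1a1 (log2 difference -1.05), Slco1a6 (-0.90), Slc22a7 (-0.68) and Slc22a2 (-0.53). Without both SS_WT replicate 3 and Kcnj16_m1 replicate 5, 7 members were lower and 8 higher, beside 11.6% and 10.6% of all tested genes, and 5 uptake carriers were lower, with Slco4c1 (-0.45) added to those 4. With all libraries the differences of these 5 were not called. All 5 are among the members picked for a low level in SS_WT replicate 3, so leaving that library out moves them lower by construction, and these values describe how the calls depend on it and are not a test of the genotypes. The choice to leave out both was made after seeing the data.

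Summed over members, uptake carriers stood at 1691, 1686, 1277, 1679 and 1549 FPKM in SS_WT and at 1679, 1682, 1669, 1685 and 1813 FPKM in Kcnj16_m1. The sums overlapped, with SS_WT replicate 3 lowest. Efflux pumps summed to 175 to 193 FPKM in SS_WT and 190.1 to 221 in Kcnj16_m1. Without Slc47a1 the efflux sum was 34.7 to 39.1 in SS_WT and 46.4 to 49.1 in Kcnj16_m1, of which Abcc4 is the largest part. The mean of that sum was 37.5 in SS_WT and 47.6 in Kcnj16_m1, and the mean of Abcc4 alone was 16.9 and 27.2 FPKM. The gap was thus that of Abcc4, and the rest of the sum did not rise. The ratio of uptake to efflux sums was 8.52 ± 0.701 in SS_WT and 8.46 ± 0.229 in Kcnj16_m1 (SD, n = 5 each). Slc22a6 and Slc22a8 together made up 54.6 to 68.2% of the uptake sum in SS_WT and 62.3 to 70.1% in Kcnj16_m1.

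**Figure D4:**
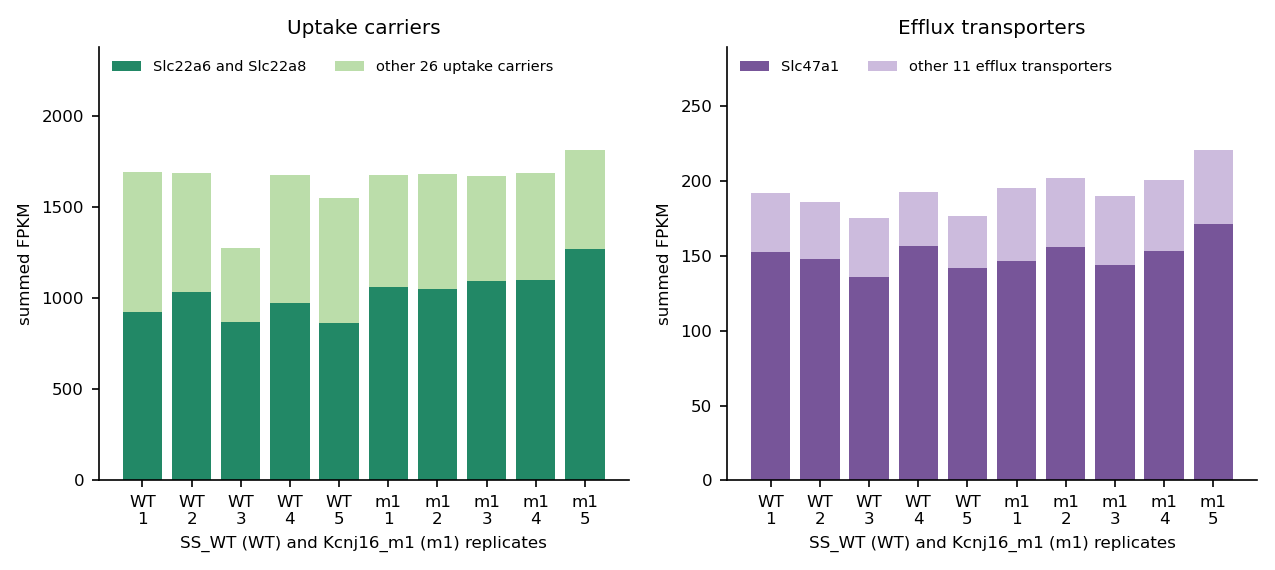
Summed FPKM of uptake carriers (left, split into Slc22a6 with Slc22a8 and the other 26) and of efflux pumps (right, split into Slc47a1 and the other 11), with 1 bar per library. Uptake sums overlap between genotypes, and SS_WT replicate 3 is the lowest at 1277 FPKM.

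Of 20 tested companion carriers and scaffold proteins, 9 were higher and 1 lower (50% called, median 0.17), beside 28.5% called over all tested genes. They include Slc13a3, named here for its role, the dicarboxylate carrier that supplies the exchange substrate of OAT1 and OAT3 (438 ± 28.2 to 569 ± 51.9 FPKM, log2 difference 0.38, adjusted p = 0.00379 by limma), and Slc51a, a subunit of the basolateral steroid and bile salt carrier (4.002 ± 0.941 to 11.8 ± 3.33 FPKM, 1.43, adjusted p = 0.0006 by limma). Slc51b, the other subunit of that carrier, was more abundant and not called (77.1 ± 21.2 to 84.8 ± 9.66 FPKM, 0.19, adjusted p = 0.507 by limma). Slc13a2, of the same family as Slc13a3, was not called either (59.3 ± 8.45 to 58.2 ± 3.18 FPKM, -0.02, adjusted p = 0.896 by limma). Of 22 transcription factors known to regulate such genes, 6 were higher and 1 lower (median 0.12). That is 31.8% called, near the 28.5% over all tested genes. Hnf4a, named for its role, was among those called higher (184 to 228 FPKM, log2 difference 0.31, adjusted p = 0.0121 by limma). Of 6 other tested ABC proteins 1 was higher, Abcf3. These lists were chosen with earlier results of these data known, and they share genes with the marker lists. Slc5a12 (higher, a companion) and Hnf4a are also counted among the proximal segment 1 and 2 markers. Slc5a8 (lower, a companion) is also counted among the proximal segment 3 markers.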

How the data were processed

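The authors deposited FPKM per gene and library, beside gene positions and lengths. The submitters' processing notes name featureCounts 1.5.0-p3, StringTie 1.3.3b, HISAT2 2.0.5 and fastp, without their roles. No genome build is named for the table's coordinates. The labels' protocols describe both directional and non-directional libraries, so strand is unknown and genes overlapping on opposite strands are uncertain. Multiplying FPKM by length gave whole reads for 100% of values within 0.05 reads. Pairs of libraries of 1 group differed beyond sampling noise (chi-square per gene 6.91 to 41.8), so each was counted as 1 sample.

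The genotypes were compared by limma (version 3.58.1, R 4.3.3) on log2(FPKM + 0.5), with moderated variances following the mean, for genes reaching 0.5 FPKM in 5 or more libraries, two-sided, Benjamini-Hochberg adjusted over all 13971 genes with a threshold of 0.05. The step was tested on simulated data. Exact permutation tests ran over all 252 splits. The members, roles and lists were chosen with earlier results of these data known. Named in full are the 8 largest rises and 8 largest falls among called members whose groups do not overlap and whose mean reaches 1 FPKM, and the 6 most abundant members. All called members are named, apart from 1 that is counted but not reported here. Other members and most genes named from the lists were named after their values were seen. Of 142 list entries 141 matched a symbol and 132 were tested. Alternatives covered the pseudocount, the filter, scaling, the variance model, limma voom on whole reads and leaving out libraries.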

Additional observations from a re-analysis of the deposited data

Results flagged for a closer look

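In 104 groups of 5 libraries (52 tested members in each genotype), 8 had 1 library set apart from the other 4 by more than 0.71 of the group's range, and chance alone would set apart about 1 group in 20. In SS_WT replicate 3, Slco1a6 was lowest at 26.1 FPKM (others 113 to 136), Slc22a25 lowest at 45.3 (others 58.1 to 60.5) and Slco4c1 lowest at 1.78 (others 6.04 to 6.97). In Kcnj16_m1 replicate 5, Slc22a18 was highest at 143 FPKM (others 120.2 to 126) and Slc22a5 highest at 84.3 (others 65.1 to 70.6). In Kcnj16_m1 replicate 2, Abcc10 was lowest at 1.92 FPKM (others 2.08 to 2.14) and Abca8 highest at 0.871 (others 0.651 to 0.697). In Kcnj16_m1 replicate 3, Abcg3l3 was highest at 7.28 FPKM (others 6.02 to 6.24).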

How the results depend on the processing

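The 15 members examined were the called members and the 6 most abundant. Over these 15 and up to 20 alternatives, 299 log2 differences were recomputed. Of these, 269 kept their direction and side of the threshold, 25 lost the call, 5 gained it and 0 changed sign. Members outside the 15 could change sign. Without Kcnj16_m1 replicate 5, Slc22a22 went from -0.13 to 0.01 and Slc22a13 from -0.03 to 0.11. Abcc4, Slco2a1, Abcb1a, Abcb10, Abcc9, Slc22a18, Slc22a25 and Slc22a6 stayed called in 20 of 20. Slc22a8 was called in 3 of 20, under quantile normalization (0.27, adjusted p = 0.0218 by limma), without SS_WT replicate 2 and without Kcnj16_m1 replicate 2. With limma voom on whole reads 13 members were called higher, adding Slc22a23, Abcc6 and Abca8. With 1 library left out in turn, members called higher ran from 7 to 13 and lower from 1 to 8, uptake carriers higher from 3 to 5 and lower from 0 to 4, efflux pumps higher from 1 to 3 and lower from 1 to 1, and all genes higher from 1510 to 2374 and lower from 1534 to 2171. The count of 8 lower members and of 4 lower uptake carriers came without SS_WT replicate 3. Without SS_WT replicate 3 and Kcnj16_m1 replicate 5, 7 members and 5 uptake carriers were lower. Efflux pumps called higher were 1 with at least 1 FPKM required in at least 5 libraries and 1 without SS_WT replicates 1 and 2. Under the stricter filter Abcb11 was not tested, and without SS_WT replicates 1 and 2 it lost its call. For the other changes in these counts the cause was not tested. Faint members such as Abcb11 (48 to 131 reads) and Slc22a7 (15 to 116 reads) are limited by depth. No paired analysis was possible because the labels give no replicate numbers or pairing.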
